A study of Xenopus tropicalis with 15 samples.

Results

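Heme synthesis was followed through 10 genes of the count table, taken by name from the textbook pathway. The choice was made with earlier results of these data known. The genes were the 8 enzymes that build heme (alas2, alad, hmbs, uros, urod, cpox, ppox and fech) and 2 carriers of the inner mitochondrial membrane (slc25a37 and slc25a38). All 10 were among the 26531 genes of the table, and all 10 had enough counts to be among the 8939 genes tested. The samples were all circulating blood cells, unsorted, of wild-type frogs (Xenopus tropicalis), drawn from the heart into EDTA and washed. The 15 libraries of 3' RNA-seq, in which reads come from the 3' end of each transcript, form 5 groups of 3. These were fresh cells taken before culture, control cells cultured for 1.5 h or 4.0 h in IMDM that had been diluted and given fetal calf serum, and cells cultured for the same times with 1 ng/mL erythropoietin (EPO) added. The EPO was X. tropicalis protein made in E. coli, and no group had EPO without culture. The labels call the 3 libraries of a group biological replicates and do not name animals or say whether blood was pooled, so p-values measure the spread between these libraries.

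Heme is the iron-containing ring that lets hemoglobin carry oxygen, and red cell precursors make most of the body's supply. The pathway starts and ends in mitochondria and passes through the cytosol in between. Its first step joins glycine and succinyl-CoA, and in vertebrates the red cell form of that enzyme, ALAS2, sets the pace. In mammals the EPO receptor, its kinase JAK2 and the transcription factor GATA1 are tied to the genes of this pathway during red cell formation. Frog red cells keep their nucleus in the circulation, so their blood can be read for transcripts of the whole pathway.

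Library totals ran from 1329340 to 6351053 counts, and 3 counts in a library corresponded to 0.455 to 2.21 CPM (counts relative to the TMM-scaled library total). The 12 globin genes took 41.9% to 48.4% of counts. Of the 15 listed erythroid markers 13 were matched, and their summed level lay between 350749 and 455120 CPM. The list includes globin genes, so this sum and the globin share are not independent. Sums for other cell types were lower. The 11 matched of 14 thrombocyte markers summed to between 379 and 503 CPM, and the 14 matched of 17 granulocyte and monocyte markers to between 237 and 526 CPM. Those of T and NK cells (9 of 13 matched, 1 at 0 counts in all libraries) summed to at most 25.1 CPM and those of B cells (8 of 9 matched) to at most 74.1 CPM. In such mixed blood, fewer cells of a type and less RNA per cell cannot be told apart.

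Most of the pathway's counts were those of the gene for its first enzyme. The 10 genes together took 0.385% to 0.510% of a library's counts, and alas2 alone made up 89.3% to 93.1% of that sum. By total counts alas2 ranked 19 in the whole table. The other 9 genes together summed to between 338 and 421 CPM in every library. Reads from the 3' end are not divided by transcript length, and how well each 3' end was captured was not tested, so these are shares of counts and set no order of transcript number between genes.

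The gene alas2 encodes erythroid 5-aminolevulinate synthase, the enzyme of the first step. Fresh cells had 3495, 3911 and 4369 CPM in replicates 1, 2 and 3. Control cells had 3569, 4249 and 4244 CPM at 1.5 h and 3678, 4079 and 4687 CPM at 4.0 h. EPO cells had 3586, 3968 and 4093 CPM at 1.5 h and 3779, 3769 and 4264 CPM at 4.0 h. All groups overlapped, the group means differed by at most 1.07-fold (from 3882 ± 264 with EPO at 1.5 h to 4148 ± 508 in control at 4.0 h, SD, n = 3), and the highest of the 15 libraries was 1.34-fold above the lowest.

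The next steps run in the cytosol. The gene alad encodes aminolevulinate dehydratase, which pairs the products of the first step into the pyrrole porphobilinogen. It lay at 142, 130 and 103 CPM in fresh cells, at 104, 144 and 113 in control at 1.5 h and at 115, 114 and 140 in control at 4.0 h. With EPO it lay at 115, 102 and 109 CPM at 1.5 h and at 106, 107 and 105 at 4.0 h. The 3 EPO libraries at 4.0 h were below the 3 control libraries, and at 1.5 h the groups overlapped. The gene hmbs encodes hydroxymethylbilane synthase, which links 4 pyrroles into a chain. It ranged from 26.2 to 46.1 CPM over the 15 libraries, with group means between 29.5 ± 1.49 (EPO, 4.0 h) and 35.5 ± 9.86 CPM (control, 1.5 h, SD, n = 3).

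The gene uros encodes uroporphyrinogen III synthase, which closes that chain into a ring. Fresh cells had 34.7, 36.0 and 19.3 CPM. Control cells had 49.3, 36.2 and 38.6 CPM at 1.5 h and 28.4, 26.1 and 20.2 CPM at 4.0 h. EPO cells had 38.3, 32.4 and 43.3 CPM at 1.5 h and 37.9, 40.5 and 36.2 CPM at 4.0 h. The control libraries at 4.0 h lay below those of all 3 other cultured groups and overlapped with fresh cells, where replicate 3 was lowest of the 15.

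The gene urod encodes uroporphyrinogen decarboxylase, the last wholly cytosolic enzyme. Fresh cells had 30.3, 16.5 and 17.5 CPM in replicates 1, 2 and 3. Control cells had 28.4, 19.0 and 19.5 CPM at 1.5 h and 33.8, 23.9 and 15.6 CPM at 4.0 h. EPO cells had 42.9, 36.3 and 30.6 CPM at 1.5 h and 38.4, 23.5 and 27.7 CPM at 4.0 h. At 1.5 h every EPO library was above every control library, and at 4.0 h the groups overlapped. Replicate 1 was highest in all 5 groups.

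The final steps return to the mitochondrion. The gene cpox encodes coproporphyrinogen oxidase, which acts between the mitochondrial membranes, and ranged from 49.4 to 86.4 CPM. The gene ppox encodes protoporphyrinogen oxidase, the next enzyme, and ranged from 7.05 to 19.3 CPM. Ferrochelatase, encoded by fech, inserts the iron, and its transcripts ranged from 3.47 to 15.5 CPM, on 8 to 63 counts per library. The group means of these enzymes differed by at most 1.26-fold (cpox), 1.21-fold (ppox) and 1.33-fold (fech).

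Of the carriers, slc25a37 (mitoferrin-1) brings iron into the mitochondria of red cells, and slc25a38 is known for glycine import at the start of the pathway. The level of slc25a38 ranged from 45.7 to 86.8 CPM. That of slc25a37 ranged from 2.60 to 12.5 CPM, on 6 to 61 counts per library, so its 4.81-fold span over libraries rests on few counts.

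**Figure D1:**
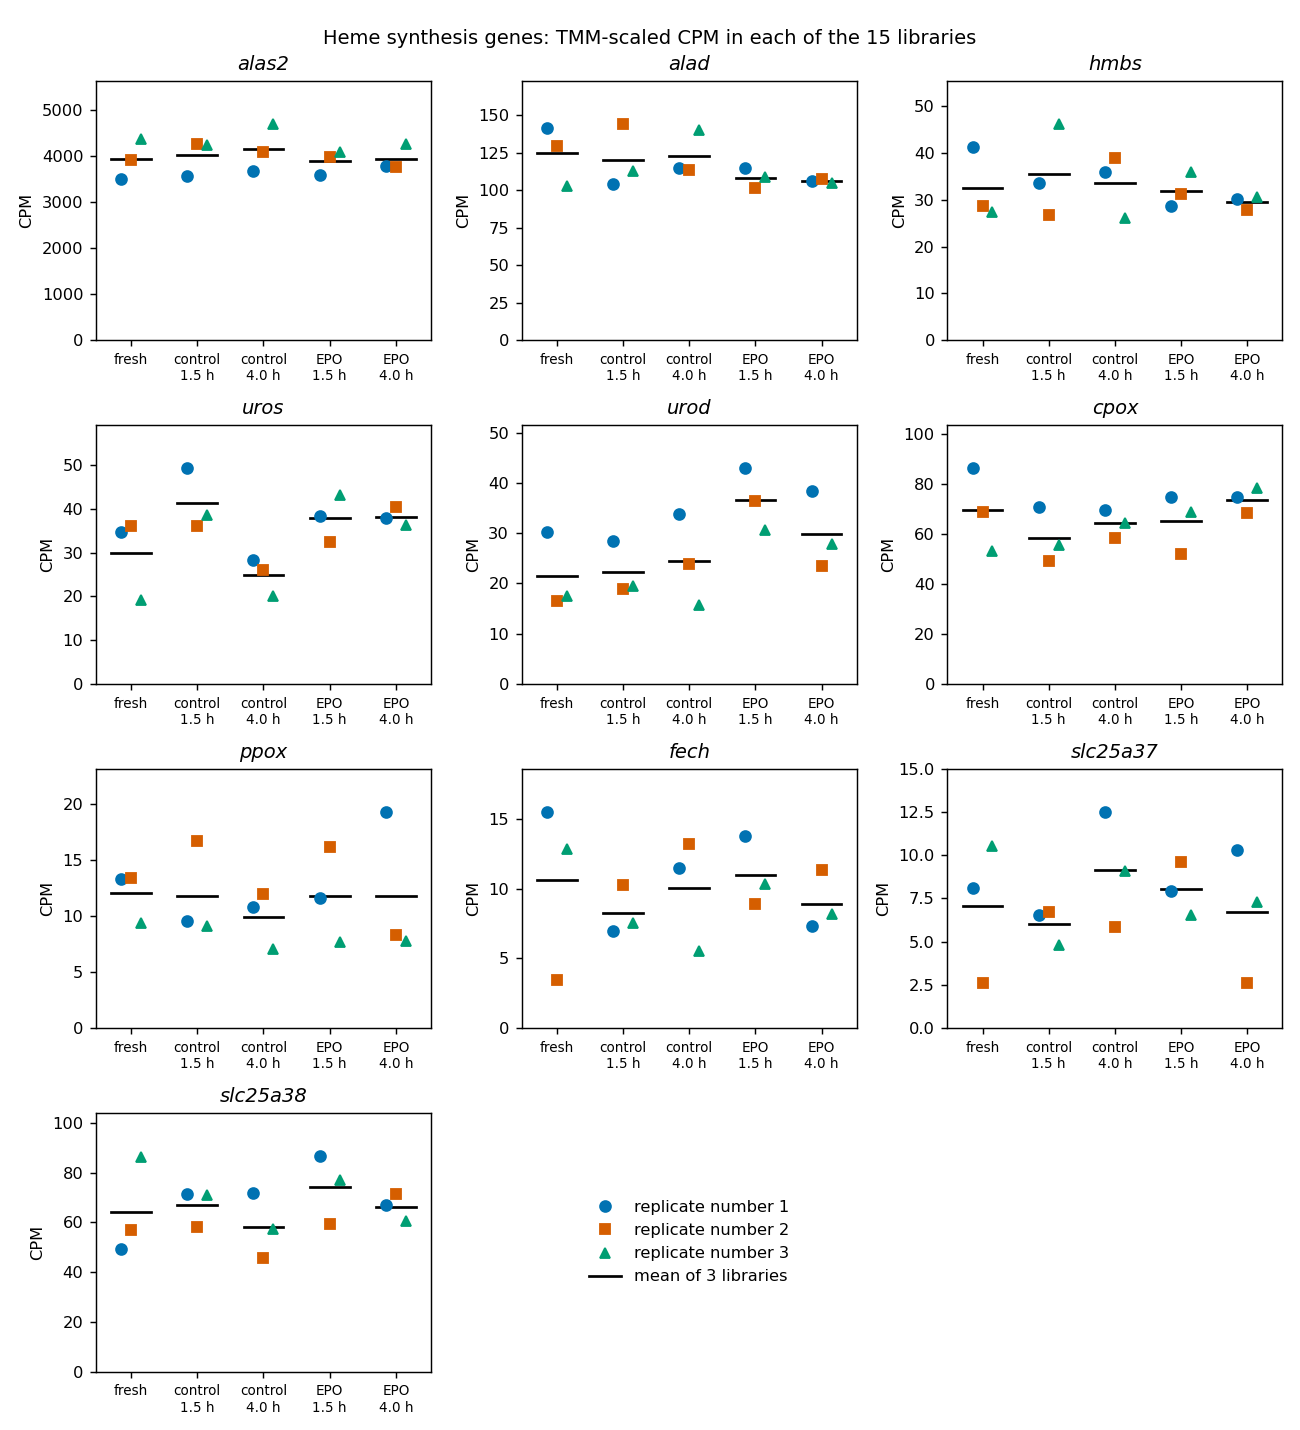
TMM-scaled CPM of the 10 heme synthesis genes (y axis, each from 0) in the 5 groups (x axis). Each point is 1 library, with colour and shape giving the replicate number, and black lines are means of 3 libraries. The alas2 means stay between 3882 and 4148 CPM, and urod is highest in replicate 1 in all 5 groups.

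The comparison of EPO with control at 1.5 h asked whether the pathway responds early to the hormone. None of the 10 genes passed at an adjusted p of 0.05 by edgeR's quasi-likelihood test with Benjamini-Hochberg adjustment over all genes tested, where 0.436% of all genes did. That fit left out the replicate number. With the number as a block 0 of the 10 passed too, where 139 of all genes did. DESeq2 called 0 of the 10 as well, and 1 of the 10 (urod) had an unadjusted p under 0.05, against 7.13% of all genes. The log2 fold changes were above 0 for 5 of 10 genes and had a median of 0.06, beside 47.6% above 0 and a median of -0.02 over all genes. For alas2 the log2 fold change was -0.05 ± 0.123 (SE), with a 95% interval that allows a fold between 0.812 and 1.15. With the block it was -0.05 ± 0.0528 (SE). The estimate for urod was 0.73 ± 0.274 (SE, 95% interval 0.17 to 1.28, adjusted p = 0.446), with the EPO library higher in 3 of 3 same-numbered pairs. It was also higher in 3 of 3 pairs for cpox, slc25a37 and slc25a38. The share of all genes with such pairs was not counted. The other 9 estimates lay between -0.15 (alad) and 0.41 (slc25a37), with adjusted p of 0.956 or more. The libraries of the groups did not overlap for 1 gene of the 10 (urod), against 14.8% of all genes.

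At 4.0 h the enzyme with the smallest p was uros in place of urod, and again none of the 10 genes passed by edgeR, where 0.190% of all genes did, DESeq2 called 0, and 1 (uros) had an unadjusted p under 0.05, against 7.10% of all genes. Of the 10 genes 5 lay above 0, with a median log2 fold change of 0.05, beside 50.3% above 0 and a median of 0.00 over all genes. The alas2 estimate was -0.07 ± 0.123 (SE), with a 95% interval of folds between 0.799 and 1.13. For uros the estimate was 0.60 ± 0.231 (SE, 95% interval 0.13 to 1.07, adjusted p = 0.459), and the EPO library was higher in 3 of 3 same-numbered pairs. For alad it was -0.21 ± 0.163 (adjusted p = 0.860), lower in 3 of 3 pairs. The EPO library was likewise higher in 3 of 3 pairs for cpox and lower in 3 of 3 for slc25a37. As at 1.5 h, the share of all genes with such pairs was not counted. The groups did not overlap for 2 of the 10 genes (uros and alad), against 14.4% of all genes.

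Over both times, the mean EPO effect had the narrowest intervals. None of the 10 passed by edgeR, where 1.19% of all genes did, DESeq2 called 0, and 1 (urod) had an unadjusted p under 0.05, against 11.8% of all genes. Estimates lay above 0 for 7 of 10 genes, with a median of 0.09, beside 48.9% and -0.01 over all genes. For alas2 the mean effect was -0.06 ± 0.0868 (SE), with folds between 0.847 and 1.08 in the 95% interval. For urod it was 0.51 ± 0.194 (SE, 95% interval 0.11 to 0.90, adjusted p = 0.234), a fold of 1.42. With the replicate number as a block, urod was the 1 gene of the 10 to pass (0.52 ± 0.158, adjusted p = 0.0492), where 3.69% of all genes passed. That call held without 1 of the 12 cultured libraries in turn (EPO at 4.0 h, replicate 2) and was lost without each of the 11 others. Over all 12 of these fits the edgeR adjusted p ran from 0.0400, in the fit that passed, to 0.183. The estimates of the other genes along the pathway were -0.18 ± 0.115 (SE) for alad, -0.17 ± 0.163 for hmbs, 0.24 ± 0.161 for uros and 0.18 ± 0.134 for cpox. They were 0.11 ± 0.275 for ppox, 0.08 ± 0.300 for fech, 0.02 ± 0.333 for slc25a37 and 0.17 ± 0.142 for slc25a38. The summed erythroid markers, globin genes among them, lay between 350749 and 414193 CPM in the EPO libraries and between 380118 and 455120 CPM in control. The globin share of counts was lower with EPO in every same-numbered pair. At 1.5 h it was 46.7%, 44.8% and 42.2% in EPO replicates 1, 2 and 3, against 48.4%, 46.0% and 43.3% in control. At 4.0 h it was 47.8%, 43.9% and 41.9%, against 48.0%, 45.0% and 43.9%. With the block 2 of the 12 tested erythroid markers passed higher (tal1 and gata1) and 1 lower (a globin gene). The genes tal1 and gata1 are also in the list of regulators below, so they are counted in both lists. Of the 13 tested granulocyte and monocyte markers 2 passed higher and 2 lower with the block. The part of these markers and of the globin share in the urod value was not tested.

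A test of the difference between the EPO effects at the 2 times passed for none of the 10 genes and for none of the 8939 (0% called by edgeR). DESeq2 called 0, and at an unadjusted p under 0.05 there were 1 of the 10 (uros) and 2.55% of all genes. The difference lay above 0 for 4 of 10 genes, beside 50.5% of all genes. The largest of the 10 in size was that of slc25a37 (-0.78 ± 0.673, adjusted p = 1), whose estimates were 0.41 ± 0.480 at 1.5 h and -0.37 ± 0.472 at 4.0 h. The difference for uros was 0.72 ± 0.321 (SE, adjusted p = 1).

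**Figure D2:**
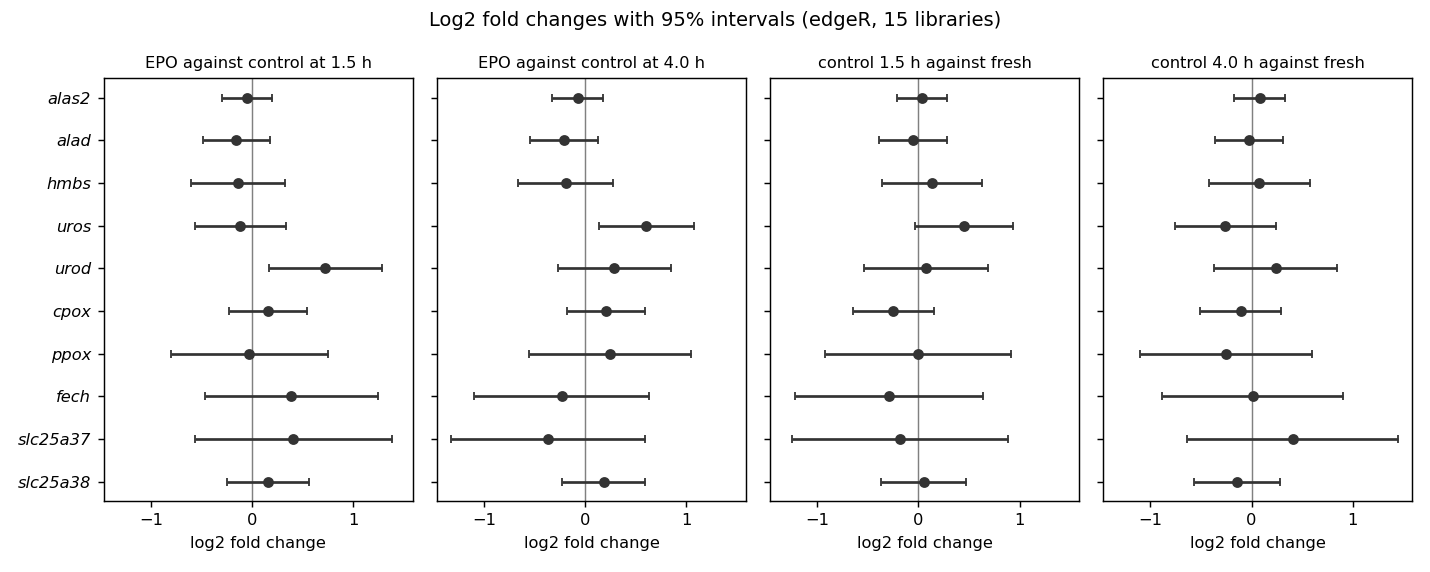
Log2 fold changes (x axis) of the 10 genes (y axis) in 4 comparisons, with 95% intervals. They come from edgeR's fit of 15 libraries without the replicate block. All alas2 intervals lie within 0.33 of 0, and the intervals that exclude 0 before adjustment are those of urod with EPO at 1.5 h and uros with EPO at 4.0 h.

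Culture itself was read by setting control cells against fresh cells, which share the fresh libraries between both times. At 1.5 h none of the 10 genes passed by edgeR, where 0.324% of all genes did. At an unadjusted p under 0.05 there were 0 of the 10, against 9.69% of all genes, and DESeq2 called 0. Estimates lay above 0 for 5 of 10 genes with a median of 0.02, beside 52% and 0.02 over all genes. The gene uros was the 1 of the 10 whose groups did not overlap, against 13.6% of all genes, with control at 1.5 h higher (0.45 ± 0.239, adjusted p = 0.541). The alas2 estimate was 0.03 ± 0.123, with folds between 0.861 and 1.22 in the 95% interval.

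At 4.0 h of control culture, 0 of the 10 passed by edgeR, where 0.0671% of all genes did, and DESeq2 called 0. There were again 0 of the 10 at an unadjusted p under 0.05, against 8.10% of all genes. The groups overlapped for all 10 genes, where 11.6% of all genes did not overlap. The estimates ran from -0.26 ± 0.246 (uros) to 0.41 ± 0.514 (slc25a37), with 5 of 10 above 0 and a median of -0.01, beside 51% and 0.01 over all genes. For alas2 it was 0.08 ± 0.123, with folds between 0.889 and 1.26.

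Most tested markers of thrombocytes and of granulocytes and monocytes lay lower in control than in fresh cells at both times. Over all genes 52% lay above 0 at 1.5 h and 51% at 4.0 h. Of the 2 tested T and NK cell markers 2 were lower at 1.5 h and 1 at 4.0 h. The 1 tested B cell marker was lower at both times. Of the 7 tested thrombocyte markers 6 were lower at 1.5 h (median log2 fold change -1.26) and 6 at 4.0 h (-0.73). At 4.0 h 1 of them passed, the integrin gene itgb3 (-3.10 ± 0.576, edgeR adjusted p = 0.0244), which was named after its values were seen. With the replicate block 1 thrombocyte marker passed, lower, at each time, where 117 of all genes passed at 1.5 h and 53 at 4.0 h. The summed thrombocyte level was 379 to 494 CPM in fresh cells, 379 to 472 in control at 1.5 h and 420 to 443 in control at 4.0 h, so these sums overlapped. Of the 13 tested granulocyte and monocyte markers 12 were lower at 1.5 h (median -0.52) and 11 at 4.0 h (-0.40), with 0 passing without the block. With it 1 of these markers passed, lower, at 1.5 h and 0 at 4.0 h. Their sum was 330 to 526 CPM in fresh cells, 243 to 343 in control at 1.5 h and 253 to 351 in control at 4.0 h. Of the 12 tested erythroid markers 9 were higher at 1.5 h (median 0.06) and 8 at 4.0 h (0.02), with 0 passing. The part of these shifts in the values of the 10 genes was not tested.

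Between 1.5 h and 4.0 h of control culture the smallest p of the pathway was that of uros. Its mean went from 41.4 ± 6.98 to 24.9 ± 4.26 CPM (SD, n = 3), lower in 3 of 3 same-numbered pairs and without overlap, a log2 fold change of -0.72 ± 0.234 (95% interval -1.19 to -0.24). Over all genes it did not pass (edgeR adjusted p = 0.999, 0.536 with the replicate block). The same control libraries at 4.0 h enter the uros values of EPO at 4.0 h and of the difference of the EPO effects. These values are therefore not independent of each other. With EPO the uros means were 38.0 ± 5.44 CPM at 1.5 h and 38.2 ± 2.13 at 4.0 h (SD, n = 3). The share of all genes lower in 3 of 3 pairs was not counted. By edgeR 0 of the 10 passed, where 0.0112% of all genes did, DESeq2 called 0, and 1 of the 10 (uros) had an unadjusted p under 0.05, against 3.73% of all genes. The groups did not overlap for 1 of the 10, against 8.28% of all genes, and 6 of 10 estimates lay above 0, beside 49.2% of all genes.

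The width of the intervals, from the fit without the replicate block, differed between the genes. The genes with the most counts had the narrowest. For alas2, with a median of 10875 counts per library, the 95% interval of the EPO effect at 1.5 h reached 0.25 to either side of its estimate on the log2 scale. That margin was 0.33 for alad (median 339 counts), 0.39 for cpox (191), 0.41 for slc25a38 (179), 0.45 for uros (97) and 0.47 for hmbs (107). It widened to 0.56 for urod (76), 0.78 for ppox (32), 0.86 for fech (34) and 0.97 for slc25a37 (19). For fech the interval allowed folds from 0.722 to 2.37 and for slc25a37 from 0.675 to 2.61, so a doubling of either lies within its interval. The counting error alone was 0.959% for alas2 and 22.9% for slc25a37 at these medians. Estimates of the spread beyond counting (the biological coefficient of variation) were larger than the counting error for each of the 10 genes and ran from 14.2% for alas2 to 34.9% for slc25a37.

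**Figure D3:**
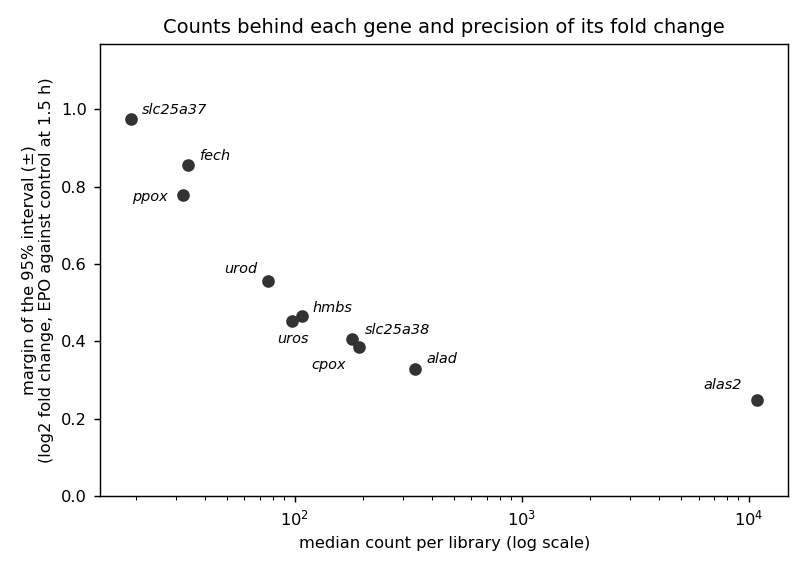
Median count per library (x axis, log scale) of the 10 genes against the margin of the 95% interval of the log2 fold change, EPO against control at 1.5 h (y axis). The margin, from the fit without the replicate block, runs from 0.25 for alas2 to 0.97 for slc25a37.

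The alas2 means lay farther apart between replicate numbers (3621 to 4331 CPM) than between the 5 groups (3882 to 4148 CPM). In all 5 groups replicate 1 lay below and replicate 3 above the group's mean. The libraries of number 1 were at 3495 to 3779 CPM (mean 3621 ± 110, SD, n = 5), those of number 2 at 3769 to 4249 CPM (3995 ± 180) and those of number 3 at 4093 to 4687 CPM (4331 ± 222). Number 1 was the lowest of its group in 4 of 5 groups, and number 3 the highest in 4 of 5. A joint test of any difference among the 3 numbers, over all 15 libraries, was added after the data had been seen. It gave an edgeR adjusted p of 2.23e-05 for alas2. The log2 difference between numbers 3 and 1 was 0.26 ± 0.0410 (SE), and no p is given for that pair alone. Of all genes 6.94% passed the joint test, and of the 10 members 2 did. With the number in the model, edgeR's biological coefficient of variation of alas2 went from 14.2% to 7.86%. It fell for each of the 10 genes, and the common value over all genes went from 0.286 to 0.241. These estimates draw on other genes too. The plain coefficient of variation of alas2 CPM within a group was 6.80% to 12.2%.

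The other member to pass was urod, with the opposite order. Its mean was 34.8 ± 5.97 CPM in number 1, 23.8 ± 7.64 in number 2 and 22.2 ± 6.60 in number 3 (SD, n = 5). The log2 difference between numbers 3 and 1 was -0.64 ± 0.178, and the joint test gave an edgeR adjusted p of 0.0188. The gene urod no longer passed this test without fresh, control 1.5 h, control 4.0 h or EPO 4.0 h replicate 1 (adjusted p between 0.0569 and 0.101). It also did not pass without a filter on low counts (0.0548), while alas2 passed in all 18 alternatives run. For ppox, number 3 was the lowest in all 5 groups (8.20 ± 1.00 CPM, beside 12.9 ± 3.81 and 13.3 ± 3.44), with an adjusted p of 0.181. For cpox, number 1 was the highest in 4 of 5 groups, also with an adjusted p of 0.181. The remaining 6 genes had adjusted p between 0.338 and 0.953.

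The labels give the number without saying what it marks, so an animal, a culture day and a library batch cannot be told apart. The marker sums of granulocytes and monocytes were 342 to 526 CPM in number 1, 237 to 391 in number 2 and 240 to 330 in number 3. The erythroid sums were 377936 to 430001, 385720 to 455120 and 350749 to 414040 CPM. The globin share of counts was 46.7% to 48.4% in number 1, above every library of the other numbers. It was 43.9% to 46.0% in number 2 and 41.9% to 44.4% in number 3. The part of any of these in the alas2 and urod values was not tested.

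**Figure D4:**
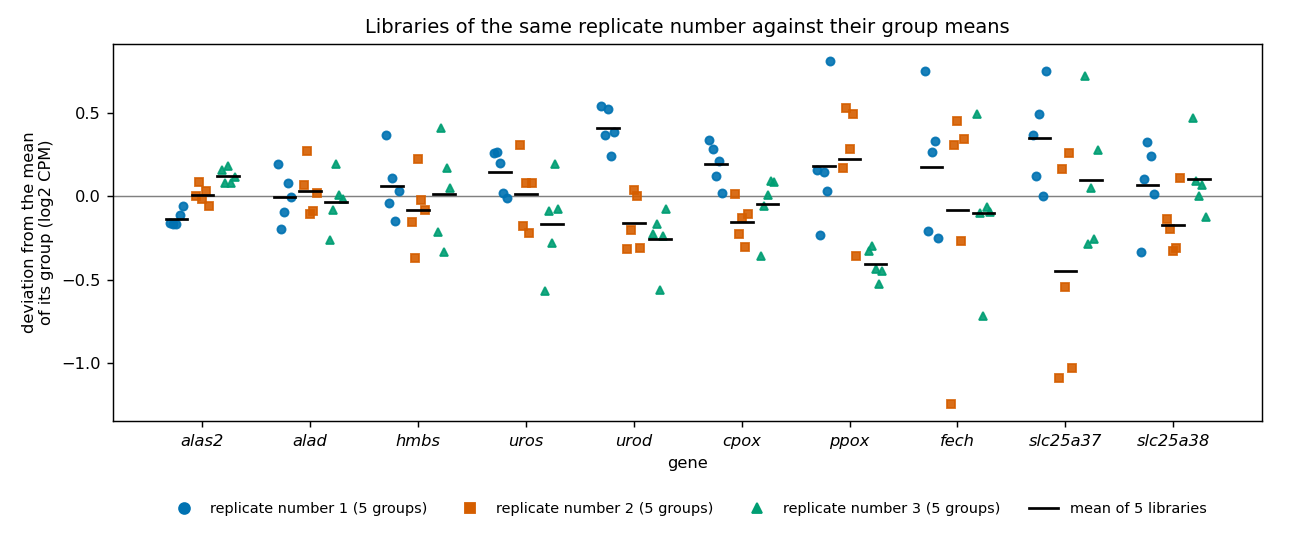
Deviation of each library from the mean of its group on the log2 CPM scale (y axis) for the 10 genes (x axis), by replicate number, with 5 libraries per number and black lines at their mean. The alas2 libraries of number 1 lie below and those of number 3 above their group means, and urod of number 1 lies above in all 5 groups.

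Over the 15 libraries the other 9 genes had a Pearson's r with alas2, on log2 CPM and given as a description, from -0.680 (urod) to 0.124 (alad). It was -0.575 for cpox and -0.570 for uros, and between -0.367 and 0.0447 for the remaining genes. Points share replicate numbers and depth, and in the genes of few counts a weak r says little. Outside the pathway, the 5 genes with the highest r to alas2 over the 15 libraries were LOC105945712 (0.946), LOC100145110 (0.904), cog5 (0.901), dcaf11 (0.899) and ulk2 (0.886). LOC105945712 ranged from 1391 to 2739 CPM and dcaf11, a substrate receptor gene of a ubiquitin ligase, from 236 to 409 CPM. The autophagy kinase gene ulk2 ranged from 20.3 to 223 CPM.

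Genes around the pathway were read from fixed lists, drawn up with earlier results of these data known. The 24 partners included the housekeeping synthase alas1, mitochondrial transporters, succinyl-CoA ligases and iron-sulfur cluster genes, among others. Of these 24 partners 22 were tested, and 0 were called in any of the 7 comparisons by edgeR without the block. Of 15 genes of heme use, export and breakdown 11 were tested, and of 12 regulators 11, again with 0 called. With the replicate block 1 partner (abcb10) and 1 regulator (tal1) passed with EPO at 4.0 h, where 76 of 8939 genes did. For the mean EPO effect 1 partner (abcb10) and 2 regulators (tal1 and gata1) passed with the block, where 3.69% of all genes did. In control at 1.5 h against fresh 1 gene of heme use (pgrmc1) passed with the block, lower, where 117 of 8939 genes did. In the mean EPO effect 12 of the 22 partners were higher (median log2 fold change 0.04), 8 of the 11 use and breakdown genes (0.12) and 7 of the 11 regulators (0.02), beside 48.9% and -0.01 over all genes. At an unadjusted p under 0.05 there were 4, 1 and 1, against 11.8% of all genes. In control at 1.5 h against fresh 14 of the 22 partners (median 0.05), 5 of the 11 use and breakdown genes (-0.10) and 6 of the 11 regulators (0.14) were higher, with 2, 3 and 2 at an unadjusted p under 0.05, against 9.69% of all genes. At 4.0 h it was 12 (0.04), 4 (-0.16) and 8 (0.05), with 1, 2 and 3, against 8.10%.

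The following 6 genes of these lists were chosen after their values were seen. The gene abcb10 encodes a transporter of the inner mitochondrial membrane that in mouse red cell precursors stabilises mitoferrin-1. It lay at 66.7, 75.1 and 59.3 CPM in control at 1.5 h and at 63.6, 46.6 and 89.2 at 4.0 h. With EPO it lay at 108, 75.6 and 95.5 CPM at 1.5 h and at 113, 86.1 and 102 at 4.0 h, beside 79.0, 50.7 and 69.0 in fresh cells. At 1.5 h the EPO libraries were all above control, by a small gap in replicate 2, and at 4.0 h they overlapped. The effect at 4.0 h was 0.61 ± 0.203 (edgeR adjusted p = 0.339, or 0.0372 with the replicate block). The mean EPO effect was 0.54 ± 0.143 (edgeR adjusted p = 0.0503, or 0.00177 with the replicate block). Over 35 alternatives, which mix fits with and without the block, 24 passed (adjusted p from 5.72e-05 to 0.167). Leaving out 1 library in turn, 6 of 15 fits passed without the block and 12 of 12 with it. The abcb10 partner slc25a37 had a mean EPO effect of 0.02 (95% interval -0.66 to 0.70).

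The erythroid transcription factor genes tal1 and gata1 did not pass in the mean EPO effect (0.34 ± 0.102, adjusted p = 0.0925, and 0.32 ± 0.160, adjusted p = 0.446), and did with the block (edgeR adjusted p = 8.46e-04 and 0.0166). Over 35 alternatives, which mix fits with and without the block, 16 and 12 passed. Leaving out 1 library in turn, 0 of 15 fits without the block passed for either gene. With the block 12 of 12 passed for tal1 and 9 of 12 for gata1. With EPO at 4.0 h tal1 had 0.49 ± 0.145 (adjusted p = 0.232, or 0.00179 with the block). At 1.5 h tal1 had 0.19 ± 0.144 (edgeR adjusted p = 0.888, or 0.528 with the block). Its means were 297 ± 20.2 CPM in control at 1.5 h and 244 ± 31.2 at 4.0 h (SD, n = 3). With EPO they were 339 ± 24.4 and 343 ± 50.3 CPM. For gata1 the EPO effect was 0.27 ± 0.227 at 1.5 h and 0.36 ± 0.227 at 4.0 h (edgeR adjusted p = 0.921 and 0.825). The synthase gene alas1, which other tissues use for the first step, lay at 21.4, 5.63 and 6.43 CPM in fresh cells. Of these, fresh replicate 1 was above every EPO library. In control at 1.5 h alas1 lay at 14.8, 9.98 and 9.55 CPM, and at 20.3, 15.8 and 17.9 CPM with EPO. At 4.0 h it lay at 15.2, 9.50 and 5.04 CPM in control and at 13.7, 19.6 and 17.6 CPM with EPO, so the groups overlapped at 4.0 h and not at 1.5 h. Its mean EPO effect of 0.69 ± 0.271 did not pass (edgeR adjusted p = 0.249, 0.0755 with the block). Of 35 alternatives 1 passed, a fit with the block.

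Of the genes of heme use, pgrmc1, which encodes a heme-binding membrane protein, had the lowest log2 fold change in culture. It lay at 18.5, 9.97 and 15.8 CPM in fresh cells, at 0.873, 1.50 and 4.38 CPM in control at 1.5 h and at 2.03, 3.37 and 1.01 CPM in control at 4.0 h. Every control library was below every fresh library. The log2 fold change at 1.5 h was -2.70 ± 0.684 (edgeR adjusted p = 0.0805, or 0.0257 with the replicate block), and that at 4.0 h was -2.70 (adjusted p = 0.197). The control levels rest on few counts, near the limit of 3 counts per library given above. With EPO it lay between 0.606 and 4.74 CPM over the 6 libraries. The highest estimate of that list was that of flvcr2, which encodes a transporter of the FLVCR family. It had 0 CPM in all 3 fresh libraries, and it lay at 3.49, 3.99 and 0.796 CPM in control at 1.5 h and at 1.35, 5.82 and 1.01 CPM at 4.0 h, with adjusted p of 0.230 and 0.328. These levels are also near the limit of 3 counts, so no fold is given.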

How the data were processed

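The authors deposited 1 table of raw whole-number counts per gene, 1 column per library; all its columns were used. The library protocol was Lasy-Seq v1.1, according to the labels. Per the submitters' processing notes, fastp 0.21.0, BWA 0.7.17-r1188, Salmon and R 4.3.2 were used; their roles, the genome build, the annotation, strand handling and any rounding of Salmon estimates are not stated in what was available here. Reads of overlapping or near-identical genes may be split between them. Of 26531 symbols 26530 matched RefSeq's gene table of UCB_Xtro_10.0, used for names only.

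The tests used edgeR 4.0.16 under R 4.3.3: filterByExpr, TMM scaling, a model of 5 group means with robust quasi-likelihood tests (10 residual degrees of freedom), two-sided, with Benjamini-Hochberg adjustment over 8939 genes at 0.05. Levels are TMM-scaled CPM; correlations used log2 CPM with a prior count of 2. The SE is the log2 fold change divided by the square root of F. Intervals are not adjusted for the number of genes, and floors of 3 counts cover counting error only. DESeq2 1.42.0 was an alternative. The code was tested on simulated data.

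Libraries of a group were distinct (chi-square of their counts, divided by its degrees of freedom, between 4.61 and 12.6). Same-numbered libraries deviated together over 1417 genes with a mean log2 CPM above 5. The correlation was 0.280 to 0.626 in 30 pairs, and at most 0.0484 in 60 pairs of different numbers. From this property of the data the numbers were taken as pairs, in the counts of same-numbered pairs and in the fits with the block. The main fit, with its estimates, SE and intervals, held no such term. For alas2 with EPO at 1.5 h the SE was 0.123 in that fit and 0.0528 with the block. The members and lists were chosen with earlier results of these data known. The rule for named genes took all 10 members, genes of the 3 pathway lists past the threshold in the fit without the block (none) and the 5 genes most like alas2. The genes abcb10, tal1, gata1, alas1, pgrmc1, flvcr2 and itgb3 fall outside it and were chosen after their values were seen. Marker genes were used to describe the mixture of cells.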

Additional observations from a re-analysis of the deposited data

Results flagged for a closer look

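The EPO effect on slc25a37 drew attention because it pointed one way at 1.5 h and the other way at 4.0 h in every same-numbered pair. At 1.5 h the EPO library was higher in 3 of 3 pairs (7.96 against 6.54, 9.61 against 6.74 and 6.55 against 4.77 CPM). At 4.0 h it was lower in 3 of 3 (10.3 against 12.5, 2.61 against 5.82 and 7.28 against 9.07 CPM). These levels rest on few counts, such as 6 with EPO and 19 in control for replicate 2 at 4.0 h. The gene was picked from the 10 for this pattern, and the share of all genes with it was not counted. The difference of the log2 effects was -0.78 ± 0.673 (SE) and did not pass (edgeR adjusted p = 1), and the groups overlapped at both times.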

How the results depend on the processing

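With the replicate block 1 of the 10 genes (urod, mean EPO effect) passed and 0 in the other 6 comparisons; under each setting without the block 0 passed in all 7. Of 1610 values of the members' fold changes over all settings, 103 had the opposite sign, each of a value within 1 SE of 0 and none called in either fit. The counts of genes called, in the order EPO at 1.5 h, EPO at 4.0 h, mean EPO effect, difference of the EPO effects, control 1.5 h and control 4.0 h against fresh, and control 4.0 h against 1.5 h, were 39, 17, 106, 0, 29, 6 and 1. With the replicate block they were 139, 76, 330, 12, 117, 53 and 8, by DESeq2 71, 42, 193, 0, 54, 13 and 4, and with no filter on low counts 66, 37, 163, 7, 68, 38 and 7. With only the groups compared the difference had 1 and the last comparison 5. Leaving out 1 library gave 13 to 49, 0 to 23, 66 to 145, 0 to 1, 7 to 37, 0 to 11 and 0 to 5. The members called by replicate number (2) became 1 with no filter, and 1 to 2 without 1 library. The cause of these shifts was not tested. DESeq2 size factors and leaving out globin genes changed no call among the 10 genes. In the blocked fit, under settings added after seeing the data, urod also passed with DESeq2 size factors (adjusted p = 0.0483) and without globin genes (0.0492). The intervals of fech, ppox and slc25a37, which had the fewest counts and the widest spread between libraries, were the widest of the 10.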
